A study of Mus musculus with 6 samples.

Results

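Gene expression of the retinaldehyde dehydrogenases and of other genes that move retinoids through the cell was examined in N18-Fms cells stimulated with CSF-1. The set held 9 genes, taken by the gene name on the array's probes: Aldh1a1, Aldh1a2, Aldh1a3, Aldh1a7, Stra6, Rdh10, Crabp1, Crabp2 and Rarb. They carried 11 probes, among 36163 genes named on the array. Because the genes were selected with their changes upon CSF-1 stimulation already known, their values against unstimulated cells are a description, and no p-value is given for them. Of the 9 genes, 7 entered the fit across 24648 genes, because in at least 1 group both arrays showed them well above background, whereas Aldh1a3 and Stra6 did not.

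N18 is 1 luciferase-expressing clone of C2H, a cell line from a prostate tumor of the TRAMP mouse, and N18-Fms cells are N18 cells that received the murine c-fms gene, coding for the CSF-1 receptor, from a retrovirus and were sorted for the receptor. Every group was grown in DMEM with fetal bovine serum and dihydrotestosterone, and every group therefore carried the transgene and the androgen. Recombinant murine CSF-1 at 100 ng/mL was given for 24 h or for 48 h, and unstimulated cells, labelled vehicule, served as the control. The same control arrays were compared with both times, and there were no separate unstimulated arrays for each time. Time in culture and cell density were therefore not separated from CSF-1 in any comparison between groups. Their part in the changes was not tested. Each group had 2 arrays from independent experiments, so that 6 single-color Agilent arrays were compared. The sample labels give these times, while the study's methods give shorter ones. The cells of this line secrete CSF-1 themselves, so the control was without added CSF-1 and not without the ligand.

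Retinol enters the cell, is carried by binding proteins and is oxidized in a reversible first step to retinaldehyde, and retinaldehyde dehydrogenases then convert it irreversibly to retinoic acid. Retinoic acid is either handed to nuclear receptors, which act as pairs of a retinoic acid receptor and a retinoid X receptor on response elements in DNA, or broken down by enzymes of the CYP26 family. In the prostate, retinoids are known for their part in the branching of the developing gland and in epithelial differentiation, and aldehyde dehydrogenase activity is used to mark stem-like cells in several epithelial tumors.

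The sequences on which the main values rest are the probes and the upstream regions of Aldh1a1 and Aldh1a7. The signals of these neighbouring paralogs could be mixed if a probe bound the transcript of the other gene. Each probe has 60 bases, of which the first 30 are shown, 5′ to 3′, with none in capitals because no part was singled out. They lie on mm9 at chr19:20717764-20717823 for Aldh1a1, chr19:20767553-20767612 for Aldh1a7 and chr1:16122062-16122121 for Rdh10, with 49730 bases between the first and the second.
Aldh1a1 probe: gactagttgtgacttaagctctgtccctca
Aldh1a7 probe: ttccttgaactatgtaccatgcatgataac
Rdh10 probe: attaaatgtttagagacctggttaatccac
Over the whole 60 bases, the best ungapped placement of the Aldh1a1 probe on the Aldh1a7 probe matched 21 of 51 overlapping bases, and the longest run they shared was 8 bases. The probes were compared only with each other, which cannot show whether either binds the transcript of the other gene. Such binding was not tested.

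The 250 bases before the annotated start of both genes are printed in the direction of transcription, from RefSeq on GRCm38.p6, at chr19:20601718-20601967 on the plus strand for Aldh1a1 and at chr19:20727557-20727806 on the minus strand for Aldh1a7. Capitals mark the 65 bases that are identical in both genes, from 94 to 30 bases before the start.
Aldh1a1 upstream: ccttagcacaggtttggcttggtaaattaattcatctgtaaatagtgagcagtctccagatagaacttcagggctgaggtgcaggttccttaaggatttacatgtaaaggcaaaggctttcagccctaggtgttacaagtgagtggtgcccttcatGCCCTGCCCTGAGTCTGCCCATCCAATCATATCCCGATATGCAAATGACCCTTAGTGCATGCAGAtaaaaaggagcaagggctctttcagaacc
Aldh1a7 upstream: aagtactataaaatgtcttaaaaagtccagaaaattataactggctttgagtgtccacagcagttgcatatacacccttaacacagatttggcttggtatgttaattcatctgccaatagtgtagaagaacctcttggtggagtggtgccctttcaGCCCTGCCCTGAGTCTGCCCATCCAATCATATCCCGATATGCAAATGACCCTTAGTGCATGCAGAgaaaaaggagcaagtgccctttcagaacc
Compared position by position without gaps, 94 of the 100 bases nearest the start were the same in both genes, and 129 of all 250 (51.6%). This comparison cannot pair stretches that lie at different distances from the start. Farther upstream both windows hold the letters tttggcttggta and ttaattcatctg at such shifted positions. The lower share there is therefore not read as unlike sequence, and a comparison with gaps was not run. RefSeq lists 2 starts for Aldh1a1, and the other one matched the Aldh1a7 window at 63 of 250 positions (25.2%). Counted from 1 at the 5′ end of each window, with the Aldh1a1 base first, the differences among the nearest 100 bases were C154T, A155C, T156A, T222G, G236T and T239C.

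**Figure D1:**
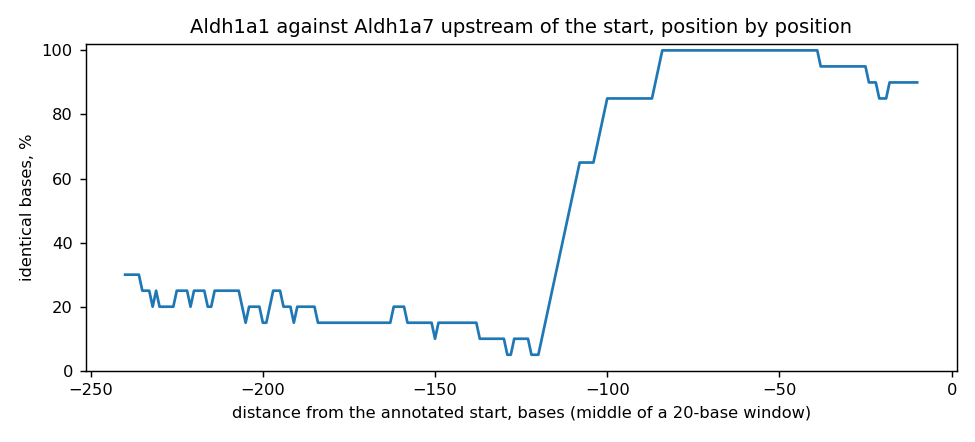
Share of identical bases between the Aldh1a1 and Aldh1a7 upstream windows (y axis, %) in 20-base windows against the distance from the annotated start (x axis, bases), compared position by position without gaps. The line reaches 100% inside the shared stretch of 65 bases and lies far lower farther upstream. Alike stretches at different distances from the start are not paired by this comparison.

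Inside the capitals, both windows held the letters CCAAT, 72 bases before the start, and the octamer ATGCAAAT, 56 bases before it. Of 32851 mouse windows of this length, searched on both strands, 33.8% held CCAAT and 1.60% held the octamer. The TATAAA motif, present in 12.4% of all windows, was found in the Aldh1a7 window 244 bases before the start and not in the Aldh1a1 window. Around T222G, 29 bases before the start, the letters are ATAAAAAGG in Aldh1a1 and AGAAAAAGG in Aldh1a7. The motif searched matches neither, and its match in Aldh1a7 is not read as a TATA box. Neither window held TTCNNNGAA, the letters of the gamma-activated site (7.02% of all windows), TGANTCA, those of the AP-1 site (6.75%), or a DR5 retinoic acid response element. The window at the other RefSeq start of Aldh1a1 held TGANTCA. A match describes letters only, and its absence says that these letters are not in this window.

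Among the 6 genes of the set that matched the promoter table, the DR5 element was found in 1, Rarb, and in 29 of the 32851 windows overall (0.0883%). It is shown because Rarb is the textbook example of a gene driven by retinoic acid through such an element, here in capitals with 20 bases on either side, at chr14:16575493-16575549 on the minus strand of GRCm38.p6.
Rarb element: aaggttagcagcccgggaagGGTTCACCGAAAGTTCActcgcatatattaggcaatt
The 17 bases of the element lie from 53 to 37 bases before the start. Aldh1a3, Crabp2 and Rdh10 were not matched.

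In CSF-1-treated cells, the signals of Aldh1a1 and Aldh1a7 were more than 12-fold lower than in unstimulated cells at both times. That of Rdh10 was more than 2-fold higher. For Aldh1a2, Crabp1 and Crabp2 the log2 differences were under 0.5 in size. Of these, Crabp1 (28.2 to 41.7 intensity units) and Aldh1a2 (45.9 to 81.8 units) were dim, though well above background on all 6 arrays. A small difference on such dim probes is not read as absence of change. Aldh1a3, Stra6 and Rarb lay at or near background. All values are log2 signals relative to the 75th percentile of the array, called relative log2 signals here. Since probes bind with different strength, a probe's level is not read as higher or lower than another's.

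**Figure D2:**
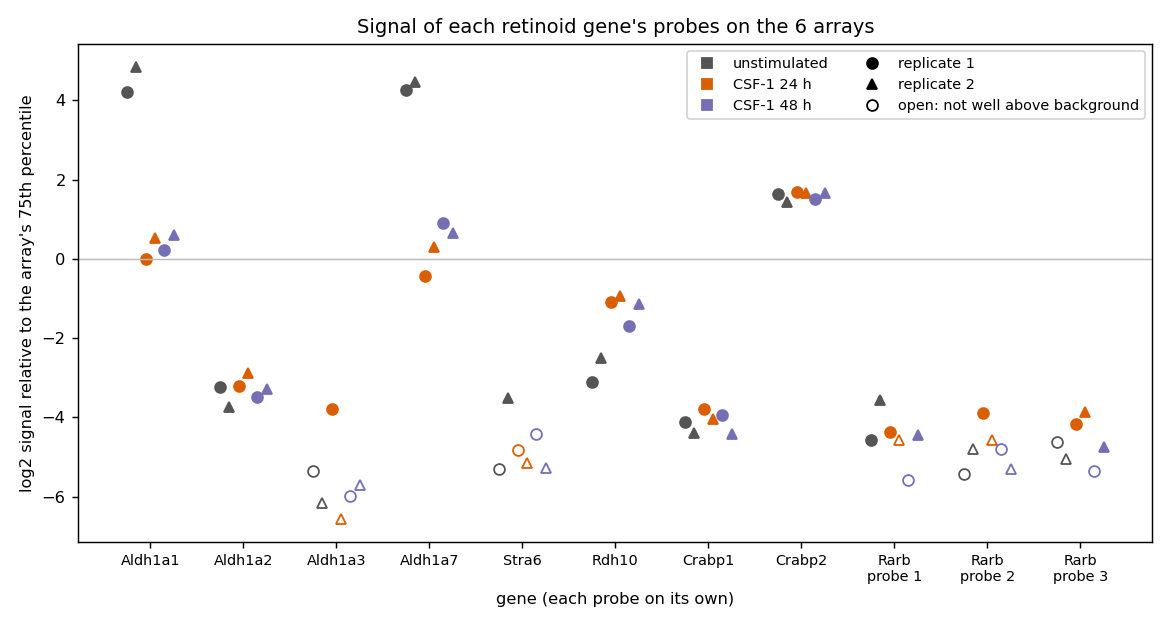
Relative log2 signal (y axis) of each of the 11 probes (x axis) on the 6 arrays, with color for the group, circles for replicate 1, triangles for replicate 2 and open symbols where the probe was not well above background. The unstimulated arrays stand apart from the 4 stimulated arrays for Aldh1a1 and Aldh1a7, which are lower upon stimulation, and for Rdh10, which is higher.

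Rdh10 is a retinol dehydrogenase that carries out the first oxidation, from retinol to retinaldehyde. Its relative log2 signal was -3.12 and -2.50 in unstimulated cells, -1.10 and -0.94 at 24 h and -1.70 and -1.15 at 48 h. The 4 stimulated arrays were above both unstimulated arrays, and the values at 24 h were above those at 48 h. The log2 change was 1.79 ± 0.27 (SE, n = 2 per group) at 24 h, 3.46-fold, and 1.39 ± 0.27 at 48 h, 2.62-fold. These values were 1.15 and 0.85 with background correction by normexp, 1.67 and 1.30 with quantile normalization and 1.06 and 0.78 with both.

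Aldh1a1 is the retinaldehyde dehydrogenase of many adult epithelia. Its relative log2 signal was 4.20 and 4.85 in unstimulated cells (mean 4.52 ± 0.46, SD), 0.01 and 0.53 at 24 h (0.27 ± 0.37) and 0.22 and 0.60 at 48 h (0.41 ± 0.27). The deposited intensities were 10093 and 17611 units in unstimulated cells against 576 to 915 units on the 4 stimulated arrays, so the signal remained well above background on all 6 arrays. The groups of unstimulated and stimulated arrays did not overlap, while the values at 24 h and 48 h did. The log2 change was -4.25 ± 0.30 (SE, n = 2 per group) at 24 h, 19.1-fold lower, and -4.11 ± 0.30 at 48 h, 17.3-fold lower. As RNA came from whole cultures, fewer cells with the transcript and less of it per cell cannot be told apart.

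Aldh1a7 is a rodent paralog of Aldh1a1 that acts poorly on retinaldehyde. Its relative log2 signal was 4.27 and 4.47 in unstimulated cells (mean 4.37 ± 0.14, SD), -0.43 and 0.29 at 24 h (-0.07 ± 0.51) and 0.90 and 0.65 at 48 h (0.77 ± 0.18). The intensities were 10620 and 13500 units in unstimulated cells and 425 to 1028 units on the stimulated arrays. Here the unstimulated arrays stood apart again, and both arrays at 48 h were above both at 24 h. The log2 change was -4.44 ± 0.26 (SE, n = 2 per group) at 24 h, 21.7-fold lower, and -3.60 ± 0.26 at 48 h, 12.1-fold lower, with a difference of 0.84 ± 0.26 between the times.

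To follow both paralogs together, the Aldh1a7 value was subtracted from the Aldh1a1 value on each array, of which only the shift between arrays can be read. The result was -0.07 and 0.38 in unstimulated cells, 0.44 and 0.24 at 24 h and -0.68 and -0.04 at 48 h. Both genes thus moved by nearly the same amount at 24 h, and at 48 h the difference was lower on both arrays than on any array at 24 h. The values at 48 h overlapped with those of unstimulated cells. The first replicate at 24 h was hybridized on a slide of its own. Without it, the changes at 24 h were -3.99 for Aldh1a1 and -4.08 for Aldh1a7.

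Aldh1a2, the main retinaldehyde dehydrogenase of the embryo, gave -3.24 and -3.73 in unstimulated cells, -3.22 and -2.87 at 24 h and -3.49 and -3.29 at 48 h. The arrays at 24 h lay barely above the unstimulated ones and those at 48 h between them, with log2 changes of 0.44 ± 0.22 (SE) and 0.10 ± 0.22. Aldh1a3, the third enzyme of this kind, was well above background on 1 array, the first replicate at 24 h, where it read -3.78, against -6.56 on the other array at 24 h and -6.17 to -5.36 elsewhere. That array had the largest share of spots well above background (72.0%, against 58.7% to 70.4% on the others). The part of this in the reading was not tested.

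Stra6, the membrane receptor that takes up retinol from its plasma carrier, was well above background on 1 array, the second unstimulated replicate, at -3.52. It lay between -5.29 and -4.43 on the other 5 arrays. No fold change is given for Aldh1a3 and Stra6, which had only a bound in at least 1 group of each comparison.

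The cellular retinoic acid-binding proteins carry retinoic acid within the cell, Crabp2 toward the nuclear receptors. Crabp2 gave 1.63 and 1.44 in unstimulated cells, 1.69 and 1.66 at 24 h and 1.51 and 1.66 at 48 h. All 6 values lay between 1.44 and 1.69, with log2 changes of 0.14 ± 0.12 (SE) and 0.05 ± 0.12. Crabp1 gave -4.13 and -4.39 in unstimulated cells, -3.78 and -4.04 at 24 h and -3.94 and -4.42 at 48 h, with changes of 0.35 ± 0.21 and 0.08 ± 0.21. The sign of the change at 24 h turned for Crabp2 with median centring (-0.14) and for Crabp1 with quantile normalization (-0.14), and no direction is given for either.

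Rarb, the retinoic acid receptor whose upstream element is printed above, had 3 probes that disagreed. The probe that stood for the gene, on mm9 at chr14:17263367-17263426, read -4.58 and -3.57 in unstimulated cells, -4.37 and -4.58 at 24 h and -5.57 and -4.43 at 48 h. It was well above background on 4 of the 6 arrays. The second, at chr14:17264648-17264707, was above background on 1 array, the first replicate at 24 h, and the third, at chr14:17651424-17651483, on both arrays at 24 h and 1 at 48 h. The third is annotated to another transcript record than the first and second. The log2 change was -0.40 ± 0.48 (SE) at 24 h and -0.93 ± 0.48 at 48 h for the first probe. It was 0.43 at 24 h for the mean of the probes, which mixes these transcript records.

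**Figure D3:**
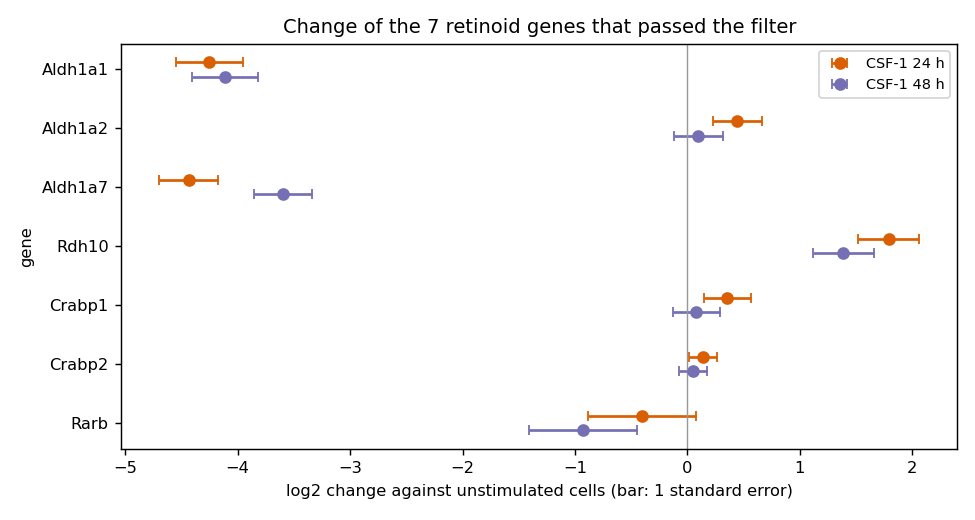
Log2 change against unstimulated cells (x axis) at 24 h and 48 h for the 7 genes that passed the filter on dim probes (y axis), with bars of 1 standard error from the fit across all genes. Aldh1a1 and Aldh1a7 lie near -4, Rdh10 lies between 1 and 2, and the other 4 genes lie within 1 of 0.

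In the fit across all genes, with a limma adjusted p under 0.05 and a 2-fold change taken as a call, 2 of the 7 genes were called lower and 1 higher at each time. Of all genes tested, 1.62% were called lower and 4.55% higher at 24 h, and 1.46% and 3.95% at 48 h. As the genes were selected on this contrast, nothing is read from their counts. Between 48 h and 24 h, 0 genes of the set and 0 of all 24648 genes were called by limma after adjustment, while 3357 genes had an unadjusted p under 0.05 and 560 of them (2.27% of all genes) also a 2-fold change. The count of genes called higher was not stable. The fits with 1 array left out held only the groups compared. At 48 h Rdh10 was lost with any 1 of the 6 arrays left out. Without an array at 24 h, this was the loss seen when only the compared groups were fitted. At 24 h Rdh10 was lost without the first unstimulated replicate or either array at 24 h. Its log2 change stayed between 1.08 and 2.10. Leaving out an array of a compared group left 1 array in that group.

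The genes whose pattern over the 6 arrays lay nearest to those of Aldh1a1 and Aldh1a7 were looked up among 13852 named genes, by the Euclidean distance of log2 values after each gene was centred on its own mean. Nearest to Aldh1a1 was Aldh1a7 (distance 0.922), followed by Ogn, which encodes the matrix proteoglycan osteoglycin (1.09), the serine protease gene Prss23 (1.22), the amine oxidase gene Aoc3 (1.23) and the calponin gene Cnn1 (1.45). Nearest to Aldh1a7 was Ogn (0.580), then Aldh1a1, Prss23 (1.22), the P-cadherin gene Cdh3 (1.30) and the metalloproteinase inhibitor gene Timp3 (1.30). Ogn was lower 15.6-fold at 24 h and 10.3-fold at 48 h, and Prss23 10.1-fold and 8.40-fold. Aoc3 was not well above background on the stimulated arrays, which gives only a bound, at least 2.73-fold lower for 24 h and at least 3.88-fold for 48 h. These genes were picked for their likeness, so their changes are a description.

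**Figure D4:**
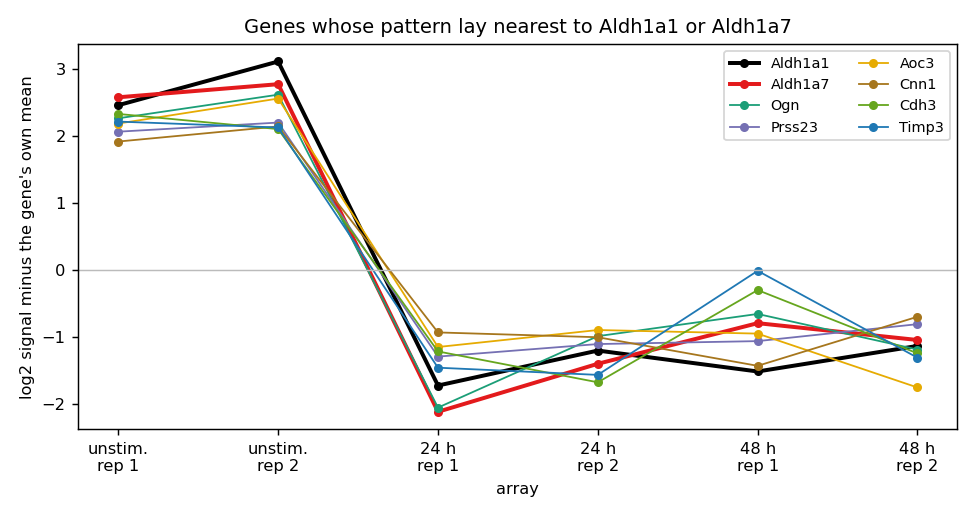
Log2 signal minus the gene's own mean (y axis) on each of the 6 arrays (x axis) for Aldh1a1, Aldh1a7 (thick lines) and the genes nearest to either. Every line lies above 1.9 on both unstimulated arrays and at or below 0 on the 4 stimulated arrays.

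The rest of the pathway was followed in 67 other genes, of which 66 were on the array and 46 were tested. At 24 h 4 of them were called higher and 2 lower, and at 48 h 2 higher and 1 lower, against the shares of all genes given above. The median log2 change of the 46 genes was 0.03 at 24 h and 0.10 at 48 h, and that of all genes tested was 0.04 and -0.04.

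**Figure D5:**
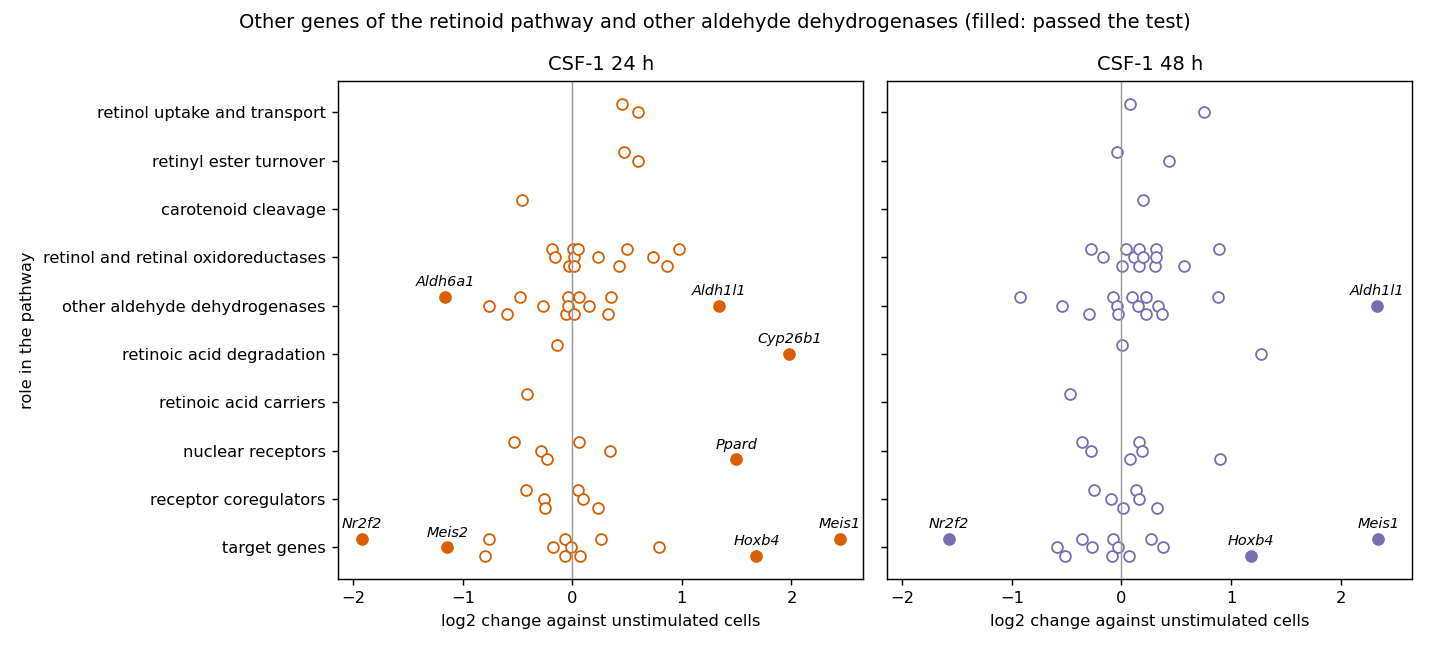
Log2 change against unstimulated cells (x axis) at 24 h (left) and 48 h (right) for other genes of the retinoid pathway and for the other aldehyde dehydrogenases, in rows by role. Filled points passed an adjusted p under 0.05 with a 2-fold change and are named, and most points lie within 1 of 0.

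Among the enzymes that remove retinoic acid, Cyp26b1 rose at 24 h. Its relative log2 signal was 1.61 and 1.49 in unstimulated cells, 3.26 and 3.80 at 24 h and 1.01 and 2.10 at 48 h. Only the arrays at 24 h stood apart. The log2 change was 1.98 ± 0.38 (SE, limma adjusted p = 0.0315) at 24 h and 0.00 ± 0.38 (adjusted p = 0.997) at 48 h, and the difference between the times, -1.98 ± 0.38, had an adjusted p of 0.156. With any 1 of the 4 arrays of the 24 h comparison left out, the call was missed, with adjusted p values between 0.0799 and 0.134, and likewise without the filter on dim probes (0.0854). Cyp26c1 was tested and not called, and Cyp26a1, the member of this family best known as a direct target of retinoic acid, did not pass the filter.

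Of the genes known to respond to retinoic acid, 13 of 19 were tested. Meis1, a homeobox gene, gave 0.78 and 1.07 in unstimulated cells, 3.48 and 3.25 at 24 h and 3.35 and 3.18 at 48 h. It rose by 2.44 ± 0.16 (SE, limma adjusted p = 0.0024) at 24 h and by 2.34 ± 0.16 (adjusted p = 0.0020) at 48 h. All 4 stimulated arrays were above both unstimulated ones.

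Its relative Meis2 gave 2.78 and 2.82 in unstimulated cells, 1.76 and 1.56 at 24 h and 2.92 and 2.51 at 48 h. It fell by 1.14 ± 0.17 at 24 h (limma adjusted p = 0.0159), and at 48 h its change was -0.09 (adjusted p = 0.785), but the difference between the times did not pass the test (adjusted p = 0.131). Leaving out any 1 of the 4 arrays of the 24 h comparison lost the call, with adjusted p values between 0.0581 and 0.0839, as did dropping the filter on dim probes (0.0553). Meis1 and Meis2 thus differed in direction at 24 h.

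Nr2f2, the orphan nuclear receptor COUP-TFII, gave 2.39 and 2.35 in unstimulated cells, 0.39 and 0.51 at 24 h and 0.99 and 0.60 at 48 h. It fell at both times, by 1.92 ± 0.16 (limma adjusted p = 0.0041) and 1.57 ± 0.16 (adjusted p = 0.0060). Hoxb4 gave 0.52 and 0.70 in unstimulated cells, 2.14 and 2.44 at 24 h and 1.67 and 1.92 at 48 h. It rose by 1.68 ± 0.17 (adjusted p = 0.0060) and 1.18 ± 0.17 (adjusted p = 0.0144), and the latter call was lost without either unstimulated array or the second array at 48 h, with adjusted p values between 0.0620 and 0.0820, and without the filter on dim probes (0.0596). The other 9 target genes tested, among them Hoxb2, Cdx1, Nr2f1, Tgm2 and Rarres2, were not called at either time.

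All 6 listed nuclear receptors were tested, and 1 was called. Ppard, a fatty acid-sensing receptor that partners the retinoid X receptors, gave 1.51 and 1.77 in unstimulated cells, 2.92 and 3.35 at 24 h and 2.46 and 2.61 at 48 h. It rose by 1.50 ± 0.19 (limma adjusted p = 0.0105) at 24 h, with a change of 0.90 ± 0.19 (adjusted p = 0.0384) at 48 h that stayed under 2-fold. The call at 24 h was lost without the first unstimulated array (adjusted p = 0.0559). The changes of Rara, Rarg, Rxra, Rxrb and Rxrg lay between -0.53 (Rarg) and 0.35 (Rxra) at 24 h and between -0.36 (Rarg) and 0.19 (Rxra) at 48 h, and none was called at either time.

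Of 18 other retinol and retinal oxidoreductases, which work on the same step as Rdh10, 13 were tested and 0 were called by limma at either time, also at an unadjusted p under 0.05 with a 2-fold change. Over all genes, 7.68% at 24 h and 6.48% at 48 h met that looser rule, so a count of 0 in 13 is near the background and nothing is read from it. Their median log2 change was 0.05 at 24 h and 0.16 at 48 h. In groups too small to read against that share, 0 of 6 receptor coregulators, 0 of 2 tested genes of retinol uptake and transport, 0 of 2 tested genes of retinyl ester turnover and 0 of 1 tested gene each of carotenoid cleavage (Bco2) and retinoic acid carriage (Fabp5) were called by limma, also without adjustment. Lrat, which stores retinol as its ester, did not pass the filter. With the fold criterion dropped, 11 of the 46 genes passed at 24 h and 8 at 48 h, against 14% of all genes at each time.

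The aldehyde dehydrogenases outside the Aldh1a group act mostly on other substrates, and 14 of 16 were tested. At 24 h 1 rose and 1 fell, and at 48 h 1 rose and 0 fell, against 4.55% of all genes called higher and 1.62% lower at 24 h and 3.95% and 1.46% at 48 h. Their median log2 changes were -0.04 and 0.12, and those of all genes 0.04 and -0.04. Aldh1l1, formyltetrahydrofolate dehydrogenase of folate metabolism, gave -1.53 and -1.75 in unstimulated cells, -0.21 and -0.39 at 24 h and 0.60 and 0.80 at 48 h. It rose by 1.34 ± 0.15 (SE, limma adjusted p = 0.0075) and 2.34 ± 0.15 (adjusted p = 0.0017), opposite in direction to Aldh1a1 and Aldh1a7, and the difference between the times did not pass the test (adjusted p = 0.121).

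Aldh6a1, which acts in valine breakdown, gave 0.73 and 1.01 in unstimulated cells, -0.42 and -0.16 at 24 h and 0.52 and 0.63 at 48 h. It fell by 1.16 ± 0.16 at 24 h (limma adjusted p = 0.0120), and its change at 48 h was -0.29 (adjusted p = 0.272). Its 2 probes moved alike, by -1.16 and -1.30 at 24 h. The call was lost without the second unstimulated array (adjusted p = 0.0618) or the first array at 24 h (adjusted p = 0.0603). The other 12 tested genes, Aldh2 and Aldh3a1 among them, were not called at either time. Some passed the adjusted p and stayed under 2-fold. Aldh2 rose by 0.88 at 48 h (limma adjusted p = 0.0202). Aldh1l2 fell by 0.76 (adjusted p = 0.0329) at 24 h and 0.93 (0.0205) at 48 h, and Aldh18a1 by 0.60 (0.0394) and 0.55 (0.0488).

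Between arrays of the same group, log2 values correlated at 0.993 to 0.994 across genes, which are not independent, and differences between replicates had an SD of 0.37 to 0.40. The label of a prostate epithelial tumor line was set against marker genes. Of 9 epithelial markers, 4 were well above background on all arrays, Krt8, Krt5 and Krt14 among them, and 3 on none, Cdh1 and Hoxb13 among them, whereas all 6 fibroblast markers were, with Vim, Col1a2 and Col1a1 among them. The epithelial label thus rests largely on keratins here. Of 7 macrophage markers, 4 were above background on all arrays, Csf1r, the transgene's own gene, among them, and Lyz2 was on none. Of 3 endothelial markers, 2 were on all arrays (Pecam1 and Kdr) and Cdh5 on 5.

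Some of these markers moved with stimulation. Of the fibroblast list, Col1a2 and Col3a1 fell and Pdgfra rose at 24 h, and Col1a1 and Col1a2 fell at 48 h, with a log2 change of -1.44 for Col1a2 at 24 h. Its summed signal, in multiples of the array's 75th percentile, was 647 to 657 in unstimulated cells, 429 to 434 at 24 h and 409 to 416 at 48 h. The 4 keratins of the epithelial list summed to 0.388 to 0.448, 0.610 to 0.612 and 0.834 to 0.916 in the same order, and of these Krt8 rose by 1.98 at 48 h. The macrophage list summed to 71.8 to 72.8, 66.9 to 68.5 and 51.3 to 61.9. The endothelial list summed to 18.7 to 25.3, 20.4 to 23.9 and 18.6 to 21.4, although Cdh5 rose by 3.87 and 3.97. Each sum follows its brightest probes and does not speak for a whole list. In unstimulated cells these were Itgam (mean relative log2 signal 5.31) and Csf1r (5.00) for macrophages, with the next marker at -2.85. For the endothelial list it was Kdr (4.42), and for the fibroblast list Vim (8.34), Col1a2 (7.60) and Col1a1 (6.96). The part of these shifts in the changes of the retinoid genes was not tested.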

How the data were processed

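RNA of N18-Fms cells was hybridized to 6 single-color arrays, 2 for each of 3 groups taken from the sample labels. The authors deposited the output of Agilent Feature Extraction 11.0.1 (11.0.1.1 in the file headers), of which the background-subtracted, detrended spot intensity was used; it is not normalized between arrays. A table of log2 values for 44569 probes, which the authors deposited too, followed these signals (99.8% of differences within 0.05), with a baseline per probe whose origin is unknown. Its column medians lay between -0.04 and 0.17.

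Spots flagged as outliers were left out (170 to 301 of 59305 per array, 0 saturated). The log2 intensity minus the array's 75th percentile over non-control spots (550.3 to 611) was taken, repeated spots were averaged and the brightest probe stood for a gene. The 24648 genes for which both arrays of some group were well above background were fitted with limma 3.58.1 in R 4.3.3 over the 3 groups, with Benjamini-Hochberg adjustment over all of them and a 2-sided test. Calls required an adjusted p under 0.05 and a 2-fold change. With 2 arrays per group an exact permutation test cannot go below p = 0.333, so none was used, and the number of arrays limits the precision. The script was tested on simulated data.

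The genes of the set and the lists were chosen with earlier results of these data known. Named genes were every gene of the set, the called genes of both lists and the 5 genes nearest in pattern to each gene of the set with a mean absolute log2 change of at least 2. Alternatives covered normalization, background, filters, probes, thresholds, blocks and left-out arrays. Exon and UTR positions of the probes were not analysed here, and some genes of the lists are not reported here. The replicate numbers did not pair the arrays by the rule used, since replicate differences correlated between groups at 0.13, 0.09 and 0.20.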

Additional observations from a re-analysis of the deposited data

How the results depend on the processing

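The log2 changes of Aldh1a1 and Aldh1a7 lay between -4.80 and -3.47 over both times and the settings tried, left-out arrays included; since these genes were selected on this contrast and every setting uses the same arrays, this describes the spread over settings and supports nothing further. The number of genes of the set called lay between 2 and 3 at 24 h and at 2 at 48 h with 1 array left out, Rdh10 being the gene lost. It was also lost at both times without a filter on dim probes and with the slide as a block, and at 48 h with normexp or with only the compared groups fitted. No result changed its direction while called. Median centring moved the median of all genes by -0.28 at 24 h and -0.10 at 48 h, and dropping the filter moved it by 0.15 at 24 h.

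With 1 array left out, 3 to 6 retinoid pathway genes were called at 24 h (6 with all arrays) and 2 to 3 at 48 h (3), 1 to 2 other aldehyde dehydrogenases at 24 h (2) and 1 to 2 at 48 h (1), and 874 to 1474 of all genes at 24 h (1521) and 849 to 1215 at 48 h (1332). The lowest counts of all genes came without the second array at 24 h (874) and without the first unstimulated array (849). Without a minimum fold, 11 and 8 retinoid pathway genes, 4 and 4 other aldehyde dehydrogenases and 3454 and 3441 of all genes were called at 24 h and 48 h. Normexp with the 75th percentile gave 867 and 873 of all genes, and with quantiles 830 and 861. No filter gave 810 at 48 h. Other aldehyde dehydrogenases called at 24 h were 1 with normexp and the 75th percentile, 0 with normexp and quantiles and 1 with the slide as a block, and at 48 h 2 with median centring. An array left out of the group not compared gave the fit of the compared groups alone. That fit called 1474 of all genes at 24 h and 1215 at 48 h. The cause of the shifts in these counts was not tested.

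Between 48 h and 24 h, 0 of all genes were called, against 6 with quantile normalization, 5 with median centring, 112 with normexp and the 75th percentile, 129 with normexp and quantiles, 5 with genes above background on all arrays, 110 with an intensity trend, 560 without adjustment and 0 to 11 with 1 array left out. Genes of the set were 0 throughout, from 0 to 0 with 1 array left out. With the replicate number as a block, 3 genes of the set were called at either time, 6 and 3 of the pathway, 2 and 1 of the other aldehyde dehydrogenases and 1550 and 1398 of all genes, and 0 between the times; the pairing is by number only. Rarb could not be fitted with genes above background on all arrays.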
